A study of Mus musculus with 2 samples.

Results

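The amino acid and peptide transporter genes of the mouse were followed in open chromatin of intestinal enteroids. Their members were the protein-coding genes of the mm9 annotation whose symbol starts with Slc1a, Slc3a, Slc6a, Slc7a, Slc15a, Slc36a, Slc38a or Slc43a followed by a number. This gave 66 of 22238 protein-coding genes, and 1 further symbol, Slc7a6os, was left out because it does not name a transporter. The assay was ATAC-seq, which marks open chromatin by letting a transposase cut it and attach adapters there. Enteroids, which are epithelial cultures grown from intestinal crypts, came from the ileum of mice of mixed C57Bl6/129sv strain aged 4 months. Control enteroids were labelled WT and carried, by the study's methods, the floxed Taf4 alleles without a recombinase. Taf4-inactivated enteroids were labelled KO and carried the same floxed alleles with VilCreERT2, a Cre recombinase that the villin promoter drives in epithelial cells and that 4-hydroxytamoxifen (4-OHT) activates. Both received 1 µM 4-OHT for 3 days. Taf4 encodes a subunit of TFIID, the factor that places RNA polymerase II at start sites, and the comparison asks how open chromatin differs soon after its loss.

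Dietary protein is absorbed across the enterocyte in steps. Peptidases of the brush border cut it to small peptides and amino acids, apical carriers take these up with protons or sodium, and basolateral exchangers and uniporters pass amino acids on to the blood. Several carriers work as pairs in which a heavy subunit of the Slc3 family brings a light subunit of the Slc7 family to the membrane. Other members serve growth, the export of amino acids from lysosomes, or the uptake of neurotransmitters in the nervous system.

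There was 1 library per genotype, so every difference below describes these 2 libraries and none was tested. The control list held 90445 peaks and the Taf4-inactivated list 71282, and the depth of the Taf4-inactivated library, estimated from the peaks' own background levels, was 60.5% of that of control. The deposited fold of a peak is its enrichment over the background of the same library, so folds were not compared between lists. Instead each peak was given the percentile of its fold within its own list, and the rank difference is the Taf4-inactivated percentile minus the control percentile, in points. Values given as after inactivation are those of the Taf4-inactivated list. Whether the difference in depth shapes the rank differences was not tested. Peak lists do not measure the loss of Taf4, which was not checked here. Fewer open alleles and fewer cells with an open site cannot be told apart. Start site peaks were called for 9 of 10 epithelial marker genes in control and for 10 of 10 in the Taf4-inactivated list. They were also called in both lists for 1 of 5 immune, 1 of 4 endothelial, 4 of 6 fibroblast and muscle and 4 of 4 neuronal marker genes, so a start site peak by itself does not mark a cell type. The 4 fibroblast and muscle genes, at percentiles 10.7 to 81.9 in control and 18.1 to 53.2 in the Taf4-inactivated list, had a median rank difference of -25.7 points, against -2.16 for the epithelial genes. The part of other cells in the differences below was not tested.

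The promoter sequences of 3 members are shown because their start site peaks had the 2 largest rank differences in favour of the Taf4-inactivated list (Slc7a11, Slc7a5) and the largest in favour of control (Slc36a4). Each is the 250 bases of mm9 before the annotated start, read 5′ to 3′ on the strand of the gene, and capitals mark a match to 1 of 5 motifs searched on both strands. The AP-1 motif was spelled TGACTCA. The motif of GATA factors was spelled AGATAA. The HNF4 motif was spelled CAAAGTCCA. The C/EBP-ATF response element was spelled TGATGCAA. The antioxidant response element was spelled TGACNNNGC, and an AP-1 match followed by GC matches it too.
Slc7a11 promoter (chr3:50247536-50247785, minus strand): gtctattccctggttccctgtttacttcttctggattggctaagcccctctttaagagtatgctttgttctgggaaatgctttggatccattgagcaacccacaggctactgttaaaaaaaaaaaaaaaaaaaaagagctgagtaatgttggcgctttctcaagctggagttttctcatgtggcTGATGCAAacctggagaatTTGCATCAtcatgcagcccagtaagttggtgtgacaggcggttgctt
Slc7a5 promoter (chr8:124431595-124431844, minus strand): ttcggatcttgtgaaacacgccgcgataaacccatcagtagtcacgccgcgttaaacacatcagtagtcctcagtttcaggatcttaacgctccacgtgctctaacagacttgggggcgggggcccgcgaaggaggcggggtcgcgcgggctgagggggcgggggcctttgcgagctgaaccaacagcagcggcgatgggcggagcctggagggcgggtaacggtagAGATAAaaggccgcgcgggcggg
Slc36a4 promoter (chr9:15513932-15514181, plus strand): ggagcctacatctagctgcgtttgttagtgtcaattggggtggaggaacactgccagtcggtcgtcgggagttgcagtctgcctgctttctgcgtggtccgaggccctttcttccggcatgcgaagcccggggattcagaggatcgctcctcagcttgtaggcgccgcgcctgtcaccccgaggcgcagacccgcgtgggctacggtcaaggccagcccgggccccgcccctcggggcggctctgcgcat

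The Slc7a11 promoter held TGATGCAA on both strands, the letters starting 66 and 47 bases before the start. It was the only 1 of 22238 coding promoters with 2 such matches, and 159 promoters (0.715%) had at least 1. Factors of the C/EBP and ATF families bind this element when amino acids are scarce. The start site peak of Slc7a11 reached over the last 53 bases of the window in control and over the last 83 in the Taf4-inactivated list. The match nearest to the start thus lay under both peaks and the other under the Taf4-inactivated peak alone. With 2 CpG dinucleotides the window was poor in CpG, while the Slc7a5 window had 27 and the Slc36a4 window 23. In the Slc7a5 window the 1 match was a GATA motif, found in 9.29% of all coding promoters, and the Slc36a4 window held none of the 5. HNF4 letters, found in 0.396% of coding promoters, were in that of 1 member, Slc3a1.

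Start site peaks, defined as peaks within 1 kb of an annotated start of the gene, were found for most transporters in both lists. In control 55 of 66 members had one (83.3%, exact Clopper-Pearson 95% interval 72.1 to 91.4), against 68.5% of all coding genes. In the Taf4-inactivated list 54 had one (81.8%, 70.4 to 90.2), against 65.7%. All such intervals cover counting error only. Among mitochondrial carriers of the Slc25 family 41 and 40 of 44 genes were called, and among cytochrome P450 genes 48 and 52 of 97. The 52 members called in both lists included all 9 basolateral, all 6 growth and all 6 lysosomal genes.

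Members called in a single list were few. There were 3 in control alone (4.55%, 0.947 to 12.7), against 5.68% of coding genes, and 2 in the Taf4-inactivated library alone (3.03%, 0.369 to 10.5), against 2.88%. Both shares were near the background. Slc6a20b, a carrier of proline and other imino acids, had a control peak of 245 bp at percentile 73.3, and the nearest Taf4-inactivated peak was 6059 bp away. Slc6a13, a GABA transporter, had a control peak at percentile 64.7, and Slc6a5, the glycine transporter of inhibitory neurons, a control peak at percentile 31.5. In the other direction stood Slc1a3, the glutamate transporter of astrocytes, with a Taf4-inactivated peak of fold 3.17 at percentile 80.6 and the nearest control peak 17231 bp away. Slc38a11, an orphan member of the sodium-coupled neutral carriers, had a Taf4-inactivated peak at percentile 47.1 and the nearest control peak 36531 bp away.

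Neither list held a start site peak for 9 members. These were Slc6a14, a broad carrier for neutral and cationic amino acids, Slc15a2, the peptide transporter of the kidney, Slc6a18, a kidney carrier for neutral amino acids, Slc6a7, a proline transporter of the brain, and Slc36a3, Slc43a3, Slc7a3, Slc7a12 and Slc7a13. Their promoters had a median observed to expected CpG ratio of 0.147, against 0.594 for the 52 members called in both lists. Over all coding genes the same medians were 0.161 and 0.700.

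**Figure D1:**
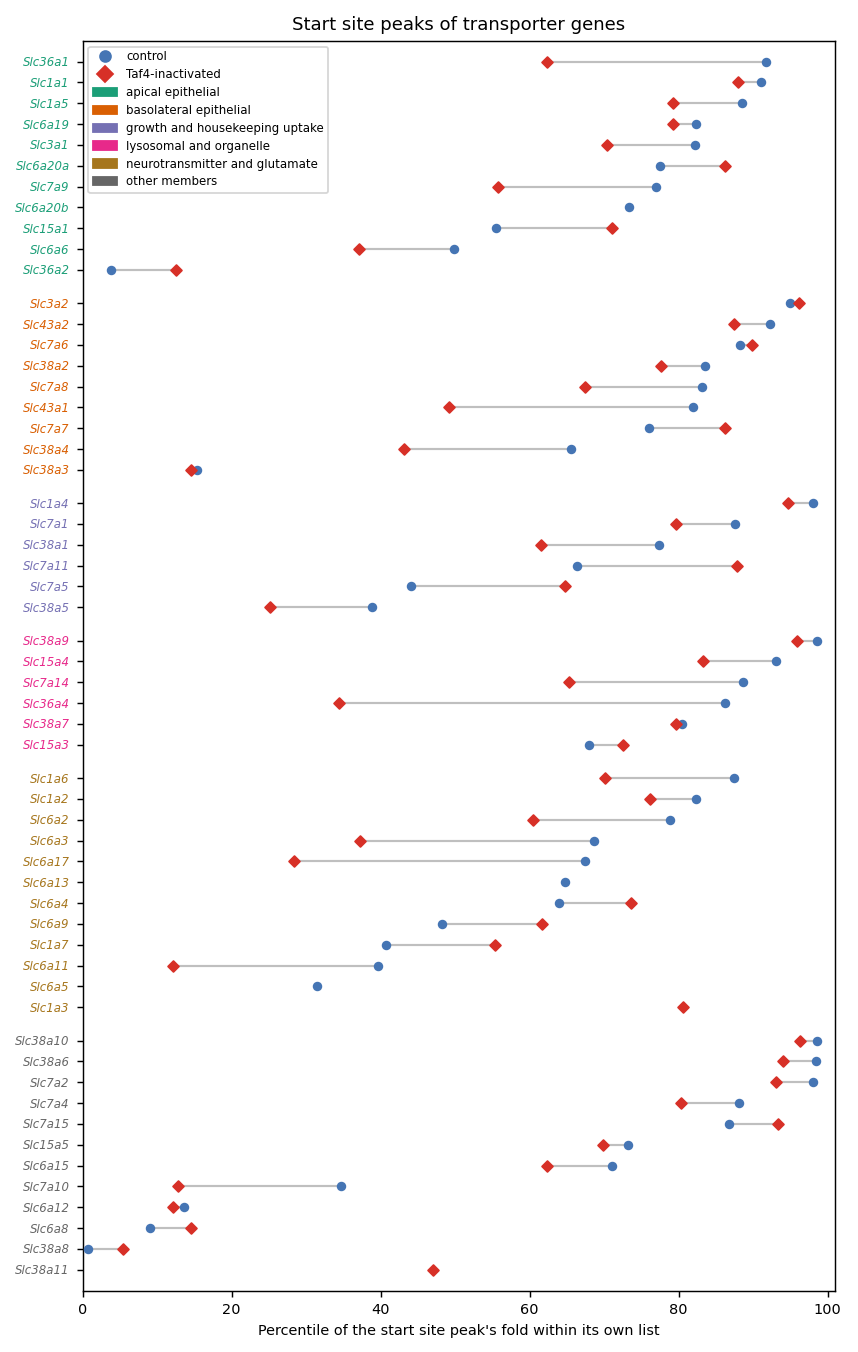
Percentile of the start site peak's fold within its own list (x axis) for 56 of the 57 members called in at least 1 list, grouped and coloured by role, with circles for control and diamonds for Taf4-inactivated enteroids. Slc36a4 has the widest gap (86.2 and 34.4), and 5 members have a symbol for a single list.

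Ranks of the 52 members called in both lists were lower after Taf4 inactivation more often than higher, as for coding genes in general. The median percentile was 78.2 in control and 70.0 after inactivation, against 88.2 and 82.6 for all coding genes called in both. The median rank difference was -4.84 points, against -2.77. Lower after inactivation were 37 members (71.2%), against 65.8% of coding genes, and 15 members were higher. At least 20 points higher after inactivation were 2 members (3.85%, 0.469 to 13.2), against 7.86% of coding genes. At least 20 points higher in control were 11 (21.2%, 11.1 to 34.7), against 12.3%. How many genes differed that far varied with the control percentile. Of the 29 members between percentiles 60 and 90 in control, 8 (27.6%) were at least 20 points lower after inactivation, against 22.9% of the 4885 coding genes in that range. Above percentile 90 the counts were 1 of 10 members against 4.79% of coding genes. Between 30 and 60 they were 2 of 8 against 19.1%. Rises of at least 20 points were more frequent from low control percentiles. Below percentile 30 they were found for 0 of 5 members, against 47.1% of coding genes. Between 30 and 60 they were found for 1 of 8 members, against 27.4%, and between 60 and 90 for 1 of 29, against 2.05%. When ranks were taken among coding start site peaks alone, 4 members were at least 20 points higher after inactivation and 4 in control, against 12.5% and 11.7% of coding genes.

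Growth and housekeeping carriers held both members that ranked at least 20 points higher after Taf4 inactivation. Slc7a11 (ENSMUSG00000027737.5, minus strand), the cystine and glutamate exchanger that feeds glutathione synthesis, had its start site peak at chr3:50246819-50247588 in control and chr3:50246916-50247618 after inactivation. Its percentile was 66.4 in control and 87.9 after inactivation, a difference of 21.5 points. The difference was 23.5 points when peaks were ranked by their −log10 p and 38.1 among coding start site peaks. Slc7a5, the large neutral amino acid exchanger of proliferating cells, was at percentile 44.1 in control and 64.7 after inactivation, a difference of 20.7 points that was 1.37 by −log10 p and 14.1 among coding start site peaks. The 4 other genes of the group ranked lower after inactivation by 3.41 to 15.9 points. Slc1a4, a carrier of alanine, serine and cysteine, stood at 98.1 and 94.7, and the cationic amino acid carrier Slc7a1 at 87.6 and 79.6. Slc38a1 and Slc38a5, both glutamine carriers, had control percentiles of 77.4 and 38.9 and Taf4-inactivated percentiles of 61.5 and 25.2.

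Apical carriers had a median rank difference of -6.17 points over 10 genes, 7 of them lower after inactivation and 3 higher. Slc15a1, the peptide transporter of the brush border, was at percentile 55.5 in control and 71.1 after inactivation, a difference of 15.6 points, or 6.06 by −log10 p. Its control peak was 1069 bp wide and its Taf4-inactivated peak 249 bp. Slc36a1, a proton-coupled carrier of small neutral amino acids, differed the other way, at 91.7 in control and 62.4 after inactivation, a difference of -29.4 points. The 2 subunits of the cystine and dibasic amino acid exchanger were both lower after inactivation, with the light subunit Slc7a9 at 77.0 in control and 55.8 there, and the heavy subunit Slc3a1 at 82.2 and 70.4. The compared peaks of Slc6a19, the main neutral amino acid carrier of the brush border, lay at different start sites and did not overlap. They stood at percentiles 82.3 in control and 79.2 after inactivation. The rank difference of Slc6a19 depended on the peak chosen, at 27.0 points for the widest peak and -24.2 for the peak nearest to a start.

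Of the remaining apical genes, the glutamate carrier Slc1a1 was at 91.1 in control and 88.0 after inactivation, and the glutamine carrier Slc1a5 at 88.5 and 79.3. The compared Slc1a5 peak lay at an internal start, and the direction turned with the choice of peak, to rank differences of 49.5 points for the peak nearest to a start and 72.6 for the widest. The proline carrier Slc6a20a was at 77.5 and 86.2, sharing its start site peak with the chemokine receptor gene Ccr9. The taurine carrier Slc6a6 was at 49.8 and 37.1. Slc36a2, a second proton-coupled carrier, was low in both lists, at 3.83 and 12.6.

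Basolateral carriers were called in both lists for 9 of 9 genes, with a median rank difference of -4.84 points. Slc43a1, a facilitative carrier of branched-chain amino acids, was at 81.9 in control and 49.2 after inactivation, a difference of -32.7 points, and -33.4 by −log10 p. Its relative Slc43a2 was at 92.3 and 87.5. The shared heavy subunit Slc3a2 was among the highest in both lists, at 95 in control and 96.1 after inactivation. Those of its light subunits that are in the basolateral group differed from each other in direction. Slc7a7 was at 76.0 in control and 86.2 after inactivation, Slc7a6 at 88.2 and 89.9, and Slc7a8 at 83.1 and 67.4. The compared peak of Slc7a7 lay at an internal start, its rank difference was 67.3 points with the nearest peak, and with start sites taken within 500 bp Slc7a7 was called in control alone. Among sodium-coupled neutral carriers, Slc38a2 was at 83.5 in control and 77.7 after inactivation, and Slc38a4 at 65.5 and 43.2. Slc38a3 was at 15.3 and 14.6, from peaks that did not overlap.

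Lysosomal carriers included the member with the largest rank difference. Slc36a4 (ENSMUSG00000043885.7, plus strand), a carrier of proline and tryptophan, had a control peak of 2349 bp at chr9:15514032-15516380 with percentile 86.2. The Taf4-inactivated peak, 1199 bp wide at chr9:15513422-15514620, had percentile 34.4. The difference was -51.8 points, -49.2 by −log10 p and -35.3 among coding start site peaks, and the peaks had 589 bp in common, so the control peak reached into the gene and the Taf4-inactivated peak did not reach as far. Slc7a14 was at 88.7 in control and 65.3 after inactivation. With the peak of highest fold, the other 4 lysosomal genes differed by less than 10 points between lists. Slc38a9, the arginine sensor of the lysosome, was at 98.6 in control and 95.9 after inactivation, and the glutamine exporter Slc38a7 at 80.5 and 79.6. Slc15a4, an exporter of histidine and small peptides, was at 93.1 and 83.3. Its rank difference depended on the peak chosen, at -47.6 points with the widest peak and 16.2 with the nearest. Its relative Slc15a3 was at 68.0 and 72.5 from peaks that did not overlap (a difference of 52.2 points with the widest or the nearest peak).

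Neurotransmitter and glutamate carriers had the lowest median rank difference of the 6 groups, -18.0 points over 10 genes, or -22.8 by −log10 p. Among coding start site peaks their median was -9.42, and that of the lysosomal group, at -10.2, was lower. At least 20 points higher in control were 4 of the 10 (40.0%, 12.2 to 73.8). They included Slc6a17, a vesicular carrier of neutral amino acids in neurons, at 67.4 in control and 28.4 after inactivation, the dopamine transporter Slc6a3 at 68.7 and 37.3, and the GABA transporter Slc6a11 at 39.7 and 12.1. The 4 neuronal marker genes had a median rank difference of -11.2 points beside them. The part of neuronal cells in this result was not tested. Slc1a7 and Slc6a9, a glutamate and a glycine carrier, ranked 14.7 and 13.3 points higher after inactivation by fold, while by −log10 p their rank differences were -3.60 and -0.521 points. The serotonin transporter Slc6a4, which enterocytes also use, was at 64.0 in control and 73.6 after inactivation.

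The 11 genes of the last group called in both lists, carriers of other tissues or of unclear function, had a median rank difference of -3.30 points. Slc7a10, a carrier of small neutral amino acids in brain and fat, was at 34.7 in control and 12.8 after inactivation, a difference of -22 points, and -6.28 among coding start site peaks. Slc38a10, Slc38a6 and the arginine carrier Slc7a2 were high in both lists, at 98.0 to 98.6 in control and 93.1 to 96.3 after inactivation, and Slc38a6 shared its peak with Trmt5. For Slc38a10 this depended on the peak chosen, as its rank difference was -96.8 points with the peak nearest to a start. The creatine carrier Slc6a8 was low in both, at 9.05 and 14.6.

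**Figure D2:**
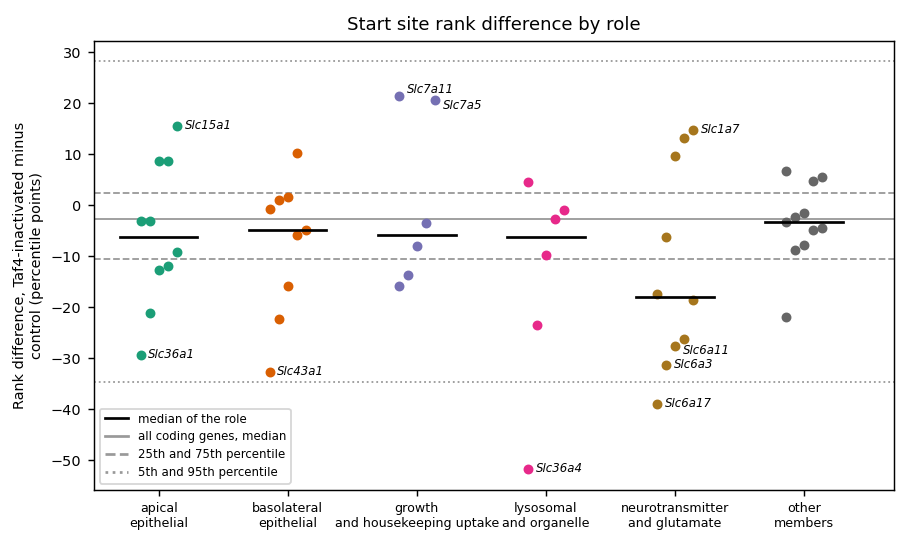
Rank difference of the start site peak, Taf4-inactivated minus control in percentile points (y axis), for the 52 members called in both lists, by role, with 1 point per gene, black bars at role medians and grey lines at percentiles of all 13974 coding genes called in both. The neurotransmitter median is -18.0, and the middle of all coding genes runs from -10.6 to 2.36.

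Genes that work with these carriers were described from 2 lists. Of 11 partners and peptidases, 9 were called in both lists. Slc9a3, the sodium and proton exchanger whose acid layer drives peptide uptake, was at 22.4 in control and 85.1 after inactivation. The difference was 62.7 points, and 42.6 by −log10 p. Of all coding genes below percentile 30 in control, 47.1% were at least 20 points higher after inactivation, with a median rank difference of 17.4. Slc9a3r1, the scaffold of Slc9a3, had a rank difference of -28.0 points by fold and -7.69 by −log10 p. Atp1b1, a sodium pump subunit, had one of -24.6 by fold and -8.62 by −log10 p. All 11 genes of the amino acid response were called in both lists, with a median rank difference of -8.82 points. Chac1, which degrades glutathione, was at 68.2 in control and 92.0 after inactivation, a difference of 23.8 points, or 14 by −log10 p, and Nupr1, a stress-induced cofactor, had a rank difference of -20.9 points, or -16.7. Atf4 itself was at 87.4 and 72.8.

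Away from start sites, peaks were counted in the gene body plus 20 kb on either side, leaving out peaks within 1 kb of any annotated start. Members had 294 such peaks in control and 255 after inactivation, with medians of 4 and 3 per gene. A peak had a partner if it shared at least 1 bp with some peak called in the other library. Without a partner were 171 control peaks (58.2%, 52.3 to 63.9), against 60.3% of such peaks of all coding genes, and 130 Taf4-inactivated peaks (51.0%, 44.7 to 57.3), against 47.9%. Both shares were near the background. The order of the shares turned with a stricter peak threshold, to 49.1% in control and 62.3% after inactivation at a −log10 q of at least 2. Shares over all coding genes at that threshold are not given here, so the turn is not read as a result about the members. Of these peaks, 71.4% in control and 73.3% after inactivation were nearer to the start of a member than to that of any other coding gene, so the rest lay nearer to a neighbour's.

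By position, 85 control peaks lay in introns, 61 touched exons, 60 were upstream and 88 downstream. The Taf4-inactivated list had 95 in introns, 39 at exons, 50 upstream and 71 downstream. Peaks without a partner ranked low, with a median percentile of 31.3 in control and 39.9 after inactivation, against 49.0 and 53.3 for those with one. Growth carriers had the lowest share of control peaks without a partner, 34.4% (18.6 to 53.2), and neurotransmitter carriers the highest, 68.6% (56.4 to 79.1). For the Taf4-inactivated peaks of these groups they were 40.0% and 62.9%.

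**Figure D3:**
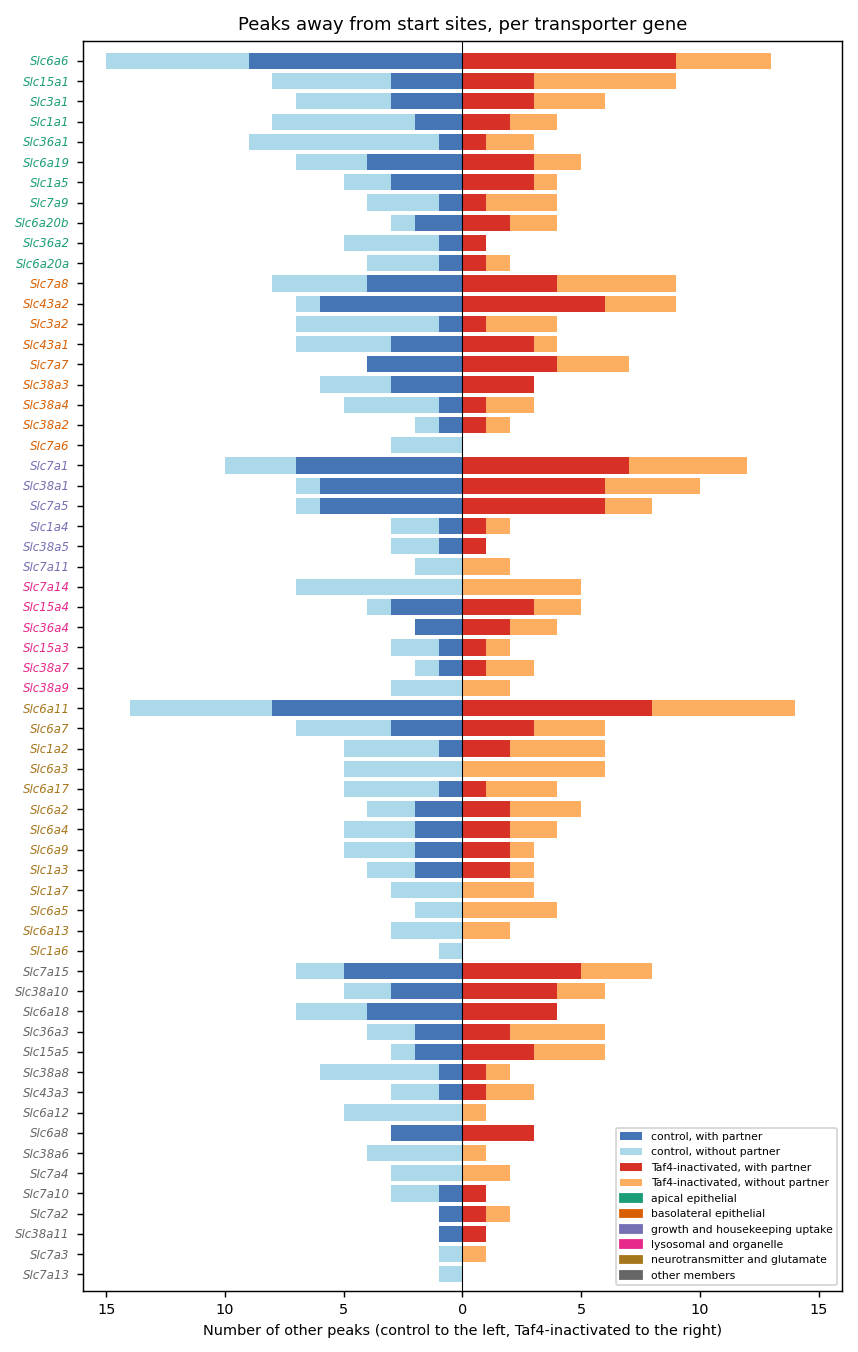
Number of peaks away from start sites for 61 of the 62 members with any (x axis, control to the left of 0 and Taf4-inactivated to the right), with dark bars for peaks with a partner in the other list and light bars for those without, and gene names coloured by role. Slc36a1 has 8 light and 1 dark control peaks, and Slc7a14 and Slc6a3 have light bars alone.

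The members with most unpartnered peaks were partly the same in both lists, with Slc6a11 and Slc7a14 among them in each. Over all coding genes, 60.3% of such peaks in control and 47.9% after inactivation had no partner. In control, Slc36a1 had 8 of 9 peaks without a partner and Slc7a14 7 of 7, and those with 6 included Slc3a2, Slc6a11, Slc1a1 and Slc6a6. In the Taf4-inactivated list, Slc15a1, Slc6a11 and Slc6a3 had 6 each, of 9, 14 and 6 peaks, followed by Slc7a1, Slc7a8 and Slc7a14 with 5. The control list held 5 of 8 without a partner for Slc15a1 and 5 of 5 for Slc6a3.

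Few of these peaks were strong. Within the top 10% of their list by fold were 6 control peaks (2.04%, against 4.08% for all coding genes) and 10 Taf4-inactivated peaks (3.92%, against 5.04%). All 6 of control had a partner, and 2 of the 10 had none. Over all coding genes, 114 of 2043 such control peaks and 264 of 1941 such Taf4-inactivated peaks had none. The central 300 bases, or the whole peak where it was shorter, are shown on the strand of the gene for the 2 strongest Taf4-inactivated peaks without a partner, for the strongest such control peak, and for 2 partnered peaks of apical carriers that ranked higher after inactivation.
Slc7a11 upstream, Taf4-inactivated list (chr3:50260541-50260840): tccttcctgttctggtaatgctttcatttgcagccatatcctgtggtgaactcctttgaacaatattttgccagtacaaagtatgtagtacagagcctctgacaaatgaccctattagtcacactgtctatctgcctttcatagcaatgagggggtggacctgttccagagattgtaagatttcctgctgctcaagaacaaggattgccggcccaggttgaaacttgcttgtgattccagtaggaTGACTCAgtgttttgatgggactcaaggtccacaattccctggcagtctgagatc
Slc43a3 downstream, Taf4-inactivated list (chr2:84801577-84801876): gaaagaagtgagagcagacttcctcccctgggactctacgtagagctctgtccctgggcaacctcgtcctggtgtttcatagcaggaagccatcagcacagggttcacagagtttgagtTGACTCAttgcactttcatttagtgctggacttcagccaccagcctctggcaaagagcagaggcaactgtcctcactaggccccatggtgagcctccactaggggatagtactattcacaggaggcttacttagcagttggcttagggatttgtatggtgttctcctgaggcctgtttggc
Slc7a9 downstream, control list (chr7:36260220-36260507): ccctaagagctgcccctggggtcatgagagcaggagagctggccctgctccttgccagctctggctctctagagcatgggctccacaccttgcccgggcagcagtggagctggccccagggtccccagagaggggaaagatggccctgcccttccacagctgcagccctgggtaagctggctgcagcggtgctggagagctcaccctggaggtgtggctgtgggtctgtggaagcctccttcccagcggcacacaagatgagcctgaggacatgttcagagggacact
Slc15a1 intron, Taf4-inactivated list (chr14:121870817-121871116): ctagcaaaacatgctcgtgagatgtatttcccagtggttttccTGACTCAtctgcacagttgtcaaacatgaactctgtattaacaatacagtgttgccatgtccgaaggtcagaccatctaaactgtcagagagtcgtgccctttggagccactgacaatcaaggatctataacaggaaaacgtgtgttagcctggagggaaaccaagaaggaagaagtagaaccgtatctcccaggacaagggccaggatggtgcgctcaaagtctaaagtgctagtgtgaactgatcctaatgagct
Slc6a19 upstream, Taf4-inactivated list (chr13:73850644-73850943): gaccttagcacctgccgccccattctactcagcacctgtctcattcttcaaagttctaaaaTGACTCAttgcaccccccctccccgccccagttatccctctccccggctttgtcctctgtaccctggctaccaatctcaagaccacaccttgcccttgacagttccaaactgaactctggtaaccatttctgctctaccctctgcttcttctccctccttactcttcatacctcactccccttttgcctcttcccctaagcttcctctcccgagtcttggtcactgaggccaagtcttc

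The Slc7a11 peak (chr3:50260485-50260897) lay 12950 bp upstream of the gene, at fold 5.20 and percentile 99.3 of the Taf4-inactivated list, and the nearest control peak was 12897 bp away. A weaker Taf4-inactivated peak without a partner, at percentile 70.6, lay 14820 bp upstream. Slc7a11 had 2 other peaks in control, in the gene body at percentiles 49.3 and 43.7, and neither had a partner. Second came a peak downstream of Slc43a3, a purine base carrier, at fold 3.72 and percentile 90.4, which was nearer to the start of Prg2, 18741 bp away. Then followed peaks of Slc6a20b, Slc38a1 and Slc7a15 at percentiles 86.4, 84.6 and 84.2. In control the strongest peak without a partner was that of Slc7a9, 26.164 kb downstream of the gene's start, at fold 2.54 and percentile 89.4. The next were those of Slc7a14, Slc7a13, Slc7a15 and Slc38a4, at percentiles 87.1, 86.8, 80.5 and 79.3.

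Among strong peaks with a partner, the intronic peak of Slc3a1 was the highest in control, at percentile 98.8 there and 97.8 after inactivation. The intronic peak of Slc15a1 spanned chr14:121870741-121872013 in control, at fold 2.63 and percentile 91.1, and chr14:121870683-121871250 after inactivation, at fold 5.11 and percentile 99.1. Upstream peaks of Slc38a1 were at 96.3 in control and 96.0 after inactivation, and those of Slc38a2 at 96.5 and 90.6.

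**Figure D4:**
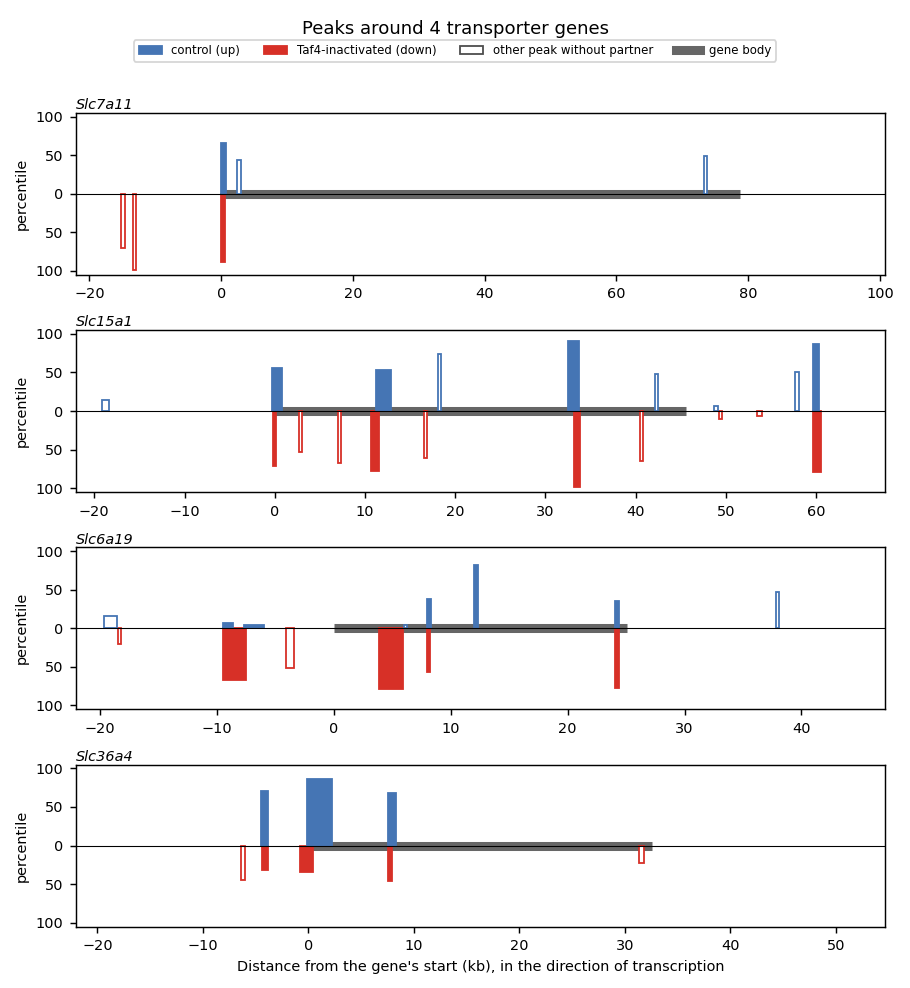
Peaks around Slc7a11, Slc15a1, Slc6a19 and Slc36a4 by distance from the gene's start in kb (x axis), drawn up for control and down for Taf4-inactivated enteroids to the percentile of fold in the own list (y axis), narrow peaks widened for view. Open bars are peaks away from start sites without a partner, among them the upstream Slc7a11 peak at percentile 99.3, and grey lines are gene bodies.

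Peaks that overlapped each other best formed 122 pairs away from start sites, and their ranks differed in both directions. The median rank difference was -0.597 points, against -1.90 over 19715 such pairs of all coding genes. At least 20 points higher after inactivation were 25 pairs (20.5%, 13.7 to 28.7), against 17.3%, and as many were at least 20 points higher in control (20.5%), against 22.7%. Both shares were near the background. Apical carriers had 10 of 28 pairs at least 20 points higher after inactivation (35.7%, 18.6 to 55.9) and 6 at least 20 points higher in control, with a median of 8.42 points. By −log10 p, 8 of these 28 pairs were at least 20 points higher after inactivation, with a median of 1.88 points. A pair in the windows of more than 1 gene was counted for each.

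The largest rank difference was that of the pair upstream of Slc6a19, at percentile 6.97 in control and 66.4 after inactivation. The Taf4-inactivated peak there was 2022 bp wide and overlapped 2 control peaks. Neither control peak covered the TGACTCA of the printed window. The paired one, at chr13:73850920-73851781, shared only an edge of that window. Another pair at an Slc6a19 exon was at 35.6 in control and 77.4 after inactivation, and 1 in an intron of Slc7a9 at 17.8 and 66.4. Of the 6 pairs of Slc7a5, 3 were between 48.2 and 52.9 points higher after inactivation, beside its start site peak. Of the 4 pairs of Slc7a7, 2 were higher after inactivation, at 33.0 in control and 80.9 there and at 46.6 and 78.3, while 1 was lower, at 50.2 and 14.6. The pairs that stood much lower after inactivation were in introns of Slc38a10 (58.5 in control and 3.44) and Slc6a6 (77.5 and 23.7), at an exon of Slc43a2 (49.0 and 0.47) and downstream of Slc15a4 (61.5 and 16.6). Both pairs of Slc36a4, at 70.8 and 68.3 in control, were lower after inactivation, at 31.1 and 45.6, as was its start site peak.

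**Figure D5:**
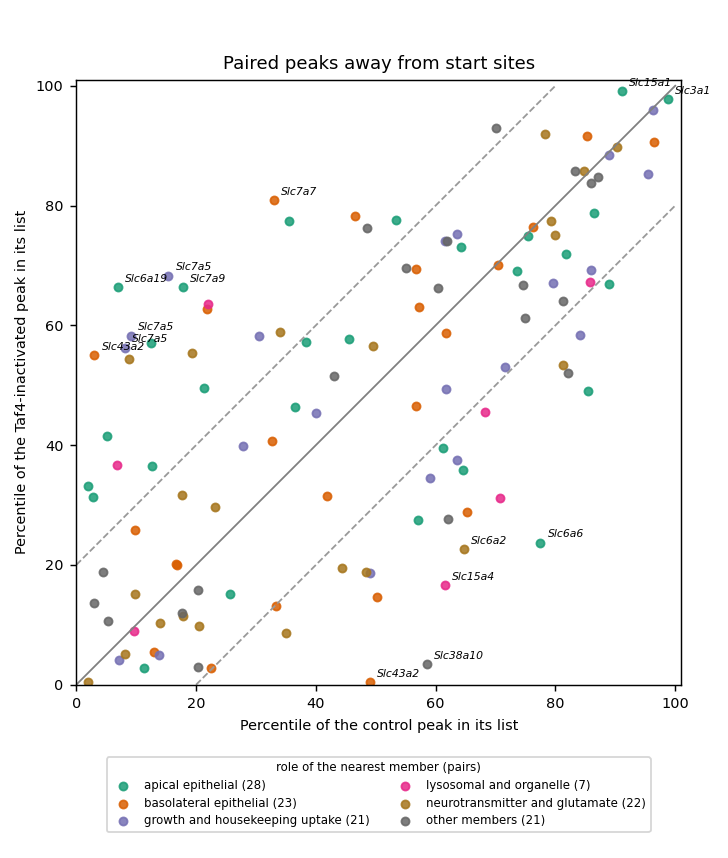
Percentile of the control peak (x axis) and of the Taf4-inactivated peak (y axis) for 122 pairs away from start sites, coloured by the role of the nearest member, with a solid line of equal rank and dashed lines 20 points either side. The 25 pairs above the upper dashed line include those of Slc6a19, Slc7a5 and Slc7a9, and 25 pairs lie below the lower one.

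Motif matches in the central 300 bases were counted as a description. AP-1 letters were in 6.46% of the 294 control windows and 9.41% of the 255 Taf4-inactivated windows of members, against 7.57% and 10.8% over all coding genes. All 4 Taf4-inactivated windows printed above held TGACTCA and the printed control window held none of the 5 motifs. The printed windows were picked by hand, so this is no contrast between the lists. Of Taf4-inactivated member windows without a partner 6.15% held AP-1 letters, against 10.2% over all coding genes. For those with a partner the shares were 12.8% and 11.3%. Among the 10 Taf4-inactivated windows of members in the top 10%, 3 held TGACTCA, against 22.7% of such windows of all coding genes. Of the 25 pairs at least 20 points higher after inactivation, 6 Taf4-inactivated windows held it (24.0%), and of the 25 at least 20 points higher in control, 1 (4.00%), against 13.5% and 8.12% over all coding genes. GATA letters were in 13.9% of control and 21.6% of Taf4-inactivated windows of members, against 10.8% and 14.2%. HNF4 letters were in 3 control (1.02%) and 2 Taf4-inactivated windows (0.784%) of members, against 0.812% and 1.72%. A match does not show that a factor was bound.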

How the data were processed

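The broad peaks of 2 ATAC-seq libraries, 1 per genotype label, were analysed. The authors mapped reads to mm9 with Bowtie, keeping those with a single location, and called broad peaks per library with MACS2 (versions 1.0.0 and 2.1.1 in the submitters' processing notes). The deposited score is 10 times the −log10 q, the deposited fold is a ratio over the library's own background, and its −log10 p and −log10 q, also as deposited, are averages over the peak. Positions were made 1-based. How duplicate and mitochondrial reads were treated is not given in the sources used here.

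Start sites and genes came from the GENCODE annotation of mm9, with gene IDs of a symbol merged. The compared start site peak was that of highest fold. Depth was estimated from the lowest background level (12.1 in control and 7.35 in the other library) implied by fold and p. Intervals are exact 95% binomial intervals. Functions were tested on simulated data. Python 3.11.15, numpy 2.4.6, pandas 2.3.3, scipy 1.17.1, matplotlib 3.10.9 and samtools 1.23.1 were used. Members, roles, gene lists and motifs were chosen with earlier results of these data known. Singled out were members called in 1 list, the 5 largest rank differences each way, the 5 members with most and the 5 strongest unpartnered peaks per list, and the apical and basolateral groups. Other named values, and the analysis of pairs, were chosen after the values were seen. Values of some genes of these lists are not reported here.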

Additional observations from a re-analysis of the deposited data

How the results depend on the processing

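With 1 library per genotype no test between genotypes was made, and the libraries differ in depth. No paired analysis was possible because each genotype had 1 library. Of 90 recomputed counts, shares and medians, 47 stayed close to the reported value and 43 moved. The rank differences of the 52 members called in both lists were recomputed by −log10 p and among coding start site peaks, and 14 of these 104 values changed sign, all of members that differed by less than 20 points. With start sites within 500 bp, 5 members were called in control alone. With 2.5 kb, 4 were at least 20 points higher after inactivation. At a −log10 q of at least 2, 4 members were called after inactivation alone, the other peaks numbered 116 in control and 159 after inactivation, and the shares without a partner were 49.1% and 62.3%. At a −log10 q of at least 5, members called were 15 and 25, with 1 in control alone and 11 after inactivation alone, other peaks 10 and 50, and shares 0% and 78.0%. With 40000 peaks per list, 6 members were called in control alone and 1 after inactivation alone, other peaks were 98 and 141, and shares 44.9% and 61.0%. The share without a partner was thus higher after inactivation in these 3 settings, and the cause was not tested. Member counts and shares in this section are given without those over all coding genes. They are therefore not read as results about the members.

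Members at least 20 points higher after inactivation were 1 when ranked by −log10 p, 4 among coding start site peaks, 6 with the widest start site peak, 5 with the nearest and, in a setting added after seeing the data, 5 with start sites of protein-coding transcripts alone. Members at least 20 points higher in control were 4 among coding start site peaks. With 10 points the counts were 6 and 18, and with 30 points 0 and 4. Slc7a11 was 1 of the members higher after inactivation in every one of these rankings at 20 points. Slc36a1, Slc36a4, Slc43a1 and Slc7a14 were the 4 left in control among coding start site peaks. Windows of gene body plus 5 kb held 184 and 168 other peaks, plus 50 kb 480 and 390, and the body alone 146 and 134. Overlap of 50% of both peaks gave shares without a partner of 78.9% and 75.3%, and a partner within 500 bp gave 44.3% in the Taf4-inactivated list. With the widest peak, the nearest peak or protein-coding transcripts alone, the sign turned for Slc1a5, Slc6a19, Slc43a2, Slc38a3 and Slc15a4 in at least 1 of these 3 settings. In other settings added after seeing the data, 1 member was at least 20 points higher after inactivation by both fold and −log10 p, and pairs overlapping by 50% of both peaks gave 10 at least 20 points higher in each list.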
